A study of Drosophila melanogaster with 9 samples.

Results

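Odorant-binding proteins (Obp) are small secreted proteins best known from the fluid around the dendrites of olfactory and taste neurons, where non-neuronal support cells release them. They bind small hydrophobic molecules such as odorants and pheromones. Some members are made outside the chemosensory organs, for example in glia, in fat cells and in the male reproductive tract. The members described here are all genes of the count table whose FlyBase symbol is Obp followed by a digit, 51 genes of 13947. The symbol alone chose them, no measured value was used, and all 51 symbols of that form in the name table used here were found among the counted genes. One odorant-binding protein gene, lush, carries another kind of symbol and is not a member.

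The counts come from nuclear RNA-seq of 3 siSet2 libraries (shSet2 in the study), replicates 1, 2 and 3. The male flies carried rh1-GAL4, UAS-GFP-Msp300KASH and UAS-siSet2, were collected 10 days after eclosion at zeitgeber time 6 (6 h after lights on), and their tagged nuclei were pulled out of head homogenate with antibodies against GFP. All 3 libraries share the RNAi transgene, which is a single shRNA line against the H3K36 methyltransferase gene Set2, and the driver, which is active in outer photoreceptors. Nuclear RNA of mCherry RNAi flies and the ATAC-seq libraries of both genotypes were not analysed here, so each value below describes siSet2 flies and none measures an effect of Set2. The submitters describe the libraries as biological replicates. No pair of them agreed within sampling noise, since a chi-square comparison of their gene counts gave 4.75 to 10.2 per degree of freedom.

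The libraries held 3657491, 3794547 and 4960498 counts, and Set2 itself had 313, 370 and 369 counts in replicates 1, 2 and 3. Each of 11 markers of outer photoreceptors reached 10 counts in all 3 libraries, and together they made up between 81569 and 84969 CPM, where CPM is the count per 1000000 counts of a library whose total was scaled by edgeR's TMM method. In bulk libraries such as these, fewer cells of a type and less RNA per cell cannot be told apart.

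The Obp genes as a family took a small share of each library. They had 499, 434 and 660 counts in replicates 1, 2 and 3, which is 0.0136% (95% Clopper-Pearson interval 0.0125% to 0.0149%), 0.0114% (0.0104% to 0.0126%) and 0.0133% (0.0123% to 0.0144%) of all counts. These intervals cover counting error only. The summed level was 128 ± 11.4 CPM (SD, n = 3), lowest in replicate 2 at 115 CPM, against 135 CPM in replicate 1 and 134 CPM in replicate 3. Rh1 opsin, encoded by ninaE, was at 8332 ± 1074 CPM (SD, n = 3) in the same libraries.

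A minority of the family carried these counts. Of the 51 genes, 7 reached a minimum of 10 counts in each library (13.7%), against 41.6% of all 13947 genes. At the other end, 24 of the 51 had no count in any library (47.1%), against 21.6% of all genes. The remaining 20 had between 1 and 46 counts over the 3 libraries together. The 7 genes over the minimum, Obp44a, Obp99c, Obp69a, Obp19d, Obp18a, Obp99b and Obp85a, held 90.8% of the 1593 Obp counts, and the first 4 of them held 73.8%. Obp genes are short, with a median annotated span of 788 bases against 2171 bases for all genes with a position. The part of gene length, or of bases shared with other genes, in these shares was not tested. By the same minimum, 8 of 179 chemoreceptor genes (symbols Or, Gr or Ir and a digit) were over it, and 4 of 70 Cpr cuticle protein genes.

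**Figure D1:**
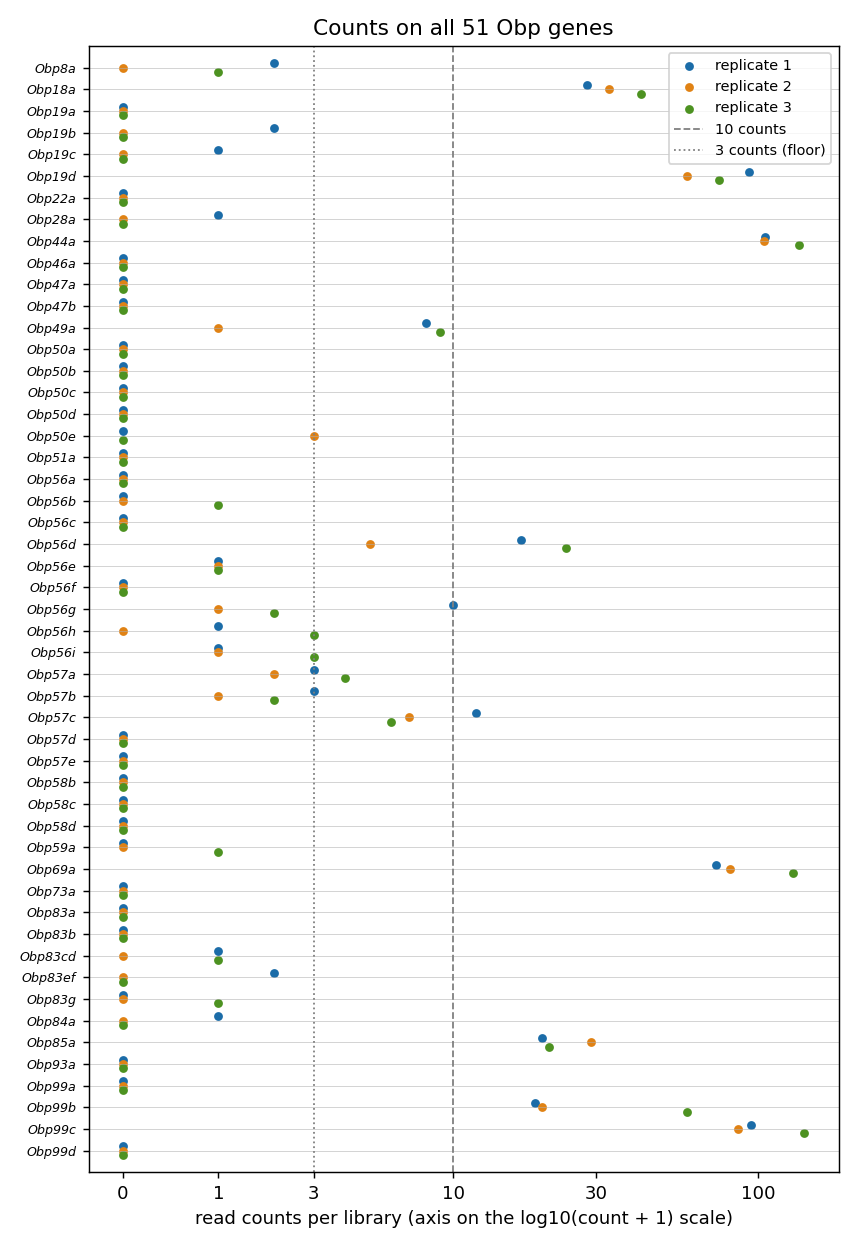
Read counts on each of the 51 Obp genes (rows, ordered by symbol number) in replicates 1, 2 and 3 (colours), on a log10(count + 1) axis. The dashed line marks 10 counts and the dotted line the floor of 3 counts: 7 genes lie right of the dashed line in every library, and 24 genes lie at 0 in all 3.

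Of the 6 Obp genes grouped here as antennal, 2 were over the minimum and the other 4 had at most 1 count each. The group was Obp19d, Obp28a, Obp69a, Obp83a, Obp83b and Obp84a, and it may not hold every antennal member. Obp69a encodes an antennal protein linked to the response to the male pheromone cis-vaccenyl acetate. It had 73, 81 and 129 counts in replicates 1, 2 and 3, or 19.8, 21.4 and 26.1 CPM, and a mean of 22.4 ± 3.30 CPM (SD, n = 3). Replicate 3 was highest, but the 95% Poisson intervals of the highest and the lowest library overlapped. Obp19d, also known as PBPRP-2 and made in the antenna and in taste organs, had 93, 59 and 75 counts. Its levels were 25.2, 15.6 and 15.2 CPM in replicates 1, 2 and 3, with a mean of 18.7 ± 5.66 CPM (SD, n = 3). Replicate 1 stood above the others, which were close to each other.

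The other members of this antennal group gave a contrast to Obp69a and Obp19d. Obp83a and Obp83b, known as OS-F and OS-E and secreted around the neurons of trichoid sensilla, had 0 counts in all 3 libraries. A count of 0 allows up to 3 counts, which over the 12412536 counts of the 3 libraries is 0.242 CPM. Obp28a and Obp84a, which are also antennal, had 1 count each, in replicate 1. The gene lush, whose product is needed to sense cis-vaccenyl acetate, had 1, 0 and 1 counts. Of the 20 genes on the list of olfactory organ markers, Est-6 alone reached the minimum of 10 counts, and the list summed to between 11.9 and 17.3 CPM. The olfactory co-receptor gene Orco had 0, 0 and 2 counts, and Ir8a, Or22a, Or67d, Or88a, a5 and a10 had none.

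Obp44a, known as an abundant transcript of glia in the nervous system, had the most counts of the family. It had 105, 104 and 135 counts in replicates 1, 2 and 3, and its levels were 28.4, 27.5 and 27.4 CPM. The mean was 27.8 ± 0.591 CPM (SD, n = 3), and the intervals of the 3 libraries overlapped. Its share of the Obp counts was 21.0% (95% Clopper-Pearson interval 17.5% to 24.9%) in replicate 1, 24.0% (20.02% to 28.26%) in replicate 2 and 20.5% (17.4% to 23.7%) in replicate 3. Glial markers were present beside it, with 7 of 8 over the minimum and a summed level between 236 and 282 CPM. The glial identity gene repo had 15, 16 and 15 counts. The glial sum was highest in replicate 1, as were 5 of the 8 glial markers, whereas nrv2, the most abundant of them, was highest in replicate 3 and repo in replicate 2. The part of glia in the Obp44a level was not tested.

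The 4 genes numbered 99, which lie close to each other on chromosome arm 3R, divided into 2 over the minimum and 2 without a count. Obp99c had 95, 86 and 140 counts in replicates 1, 2 and 3, at 25.7, 22.8 and 28.4 CPM, and a mean of 25.6 ± 2.81 CPM (SD, n = 3). Its 3 intervals overlapped. Obp99b, found before in fat cells of the head, had 19, 20 and 59 counts, at 5.15, 5.29 and 12.0 CPM. Its mean was 7.47 ± 3.89 CPM (SD, n = 3), with replicate 3 at 2.32-fold the level of replicate 1. Obp99a and Obp99d had 0 counts, although Obp99d lies 1250 bases from Obp99b.

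The fat body markers did not move together in the libraries in which Obp99b differed. Lsp2, which encodes a larval serum protein that the adult fat body also makes, was highest in replicate 3 like Obp99b, at 10.0, 25.4 and 44.8 CPM in replicates 1, 2 and 3. The lipoprotein gene apolpp, with 2864, 2336 and 2679 counts, was highest in replicate 1 once scaled. The list had 4 of 8 genes over the minimum and summed to 873, 702 and 647 CPM, with Fbp1 at 0. The part of fat body RNA in the Obp99b level was not tested.

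The last members over the minimum were Obp18a and Obp85a. Obp18a had 28, 33 and 42 counts, at 7.59, 8.73 and 8.51 CPM in replicates 1, 2 and 3. Its mean was 8.28 ± 0.607 CPM (SD, n = 3), with no library apart. Obp85a, one of the Plus-C odorant-binding proteins with additional cysteines, had 20, 29 and 21 counts, at 5.42, 7.67 and 4.26 CPM, and averaged 5.78 ± 1.74 CPM (SD, n = 3). Replicate 2 was its highest library and replicate 3 its lowest, with overlapping intervals.

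**Figure D2:**
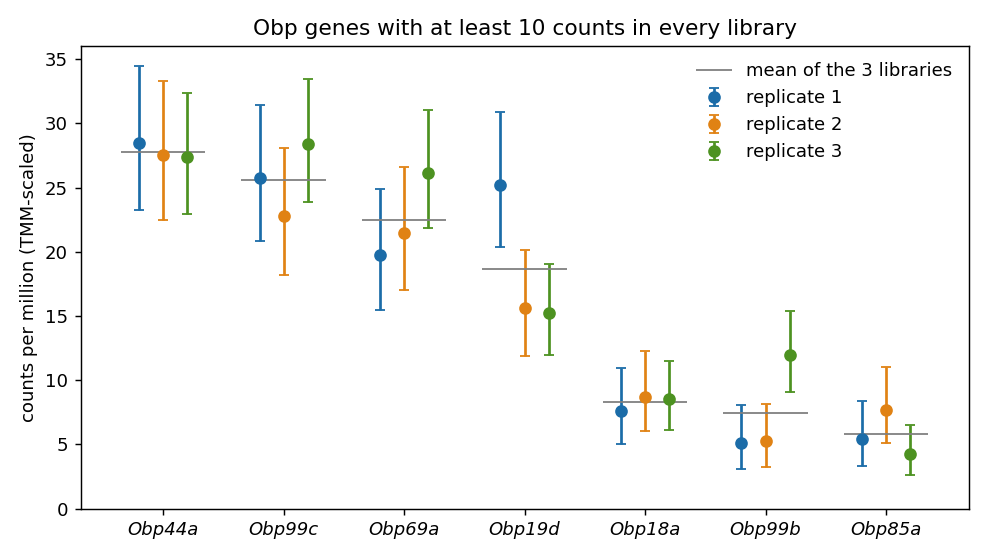
Levels of the 7 Obp genes with at least 10 counts in every library, in TMM-scaled CPM, with 1 point per library, its 95% exact Poisson interval (bars, counting error only) and the mean of the 3 libraries (grey line). Obp44a sits between 27.4 and 28.4 CPM in all 3 libraries, a range narrower than its bars. Obp19d is highest in replicate 1 at 25.2 CPM and Obp99b in replicate 3 at 12.0 CPM.

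Of these 7 genes, 2, Obp19d and Obp99b, had 95% Poisson intervals that did not overlap between their highest and lowest library. Among all 5802 genes with at least 10 counts in every library, 24.4% did. Those genes were not matched to the 7 in count level, and intervals narrow relative to the level as counts rise. This rule on intervals describes the 3 libraries and compares no conditions. Obp19d passed it narrowly, with an interval from 20.3 to 30.9 CPM in replicate 1 and from 12.0 to 19.1 CPM in replicate 3, and neither gene passed it with 99% intervals. Without replicate 1, Obp99b alone was left, and without replicate 3, Obp19d alone was left. The highest library was replicate 1 for 2 of the 7 genes, replicate 2 for 2 and replicate 3 for 3. The median SD of log2(CPM + 1) between libraries was 0.20 for the 7 genes and 0.18 for the 5802 genes, again not matched in count level. The SD was 0.03 for Obp44a and 0.61 for Obp99b. The Obp44a values lay well inside its counting interval, 23.3 to 34.4 CPM in replicate 1, so their closeness is no measure of stability.

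Muscle markers had their highest sum in replicate 1. They summed to 175 CPM in replicate 1, against 68.0 and 61.4 CPM in replicates 2 and 3. In the muscle list, 5 of 9 genes were over the minimum, with Act88F and TpnC4 at 0. Among the Obp genes over the minimum, Obp19d and Obp44a were also highest in replicate 1. The Obp44a margin was small, at 28.4 CPM against 27.5 and 27.4 CPM in replicates 2 and 3, and its intervals overlapped. Of the remaining Obp genes over the minimum, 2 were highest in replicate 2 and 3 in replicate 3. Replicate 1 also had the highest sums of the glial, fat body, olfactory and hemocyte lists, though not of all their genes. It was highest for 5 of 8 glial, 4 of 8 fat body and 4 of 6 hemocyte markers. Of the 20 olfactory markers it was highest for 8, replicate 3 was highest for 5, and 6 were at 0. These tallies include genes with very few counts, so they say little about the libraries. Est-6 alone of the 20 reached the minimum, and Ir76b and Gr21a had 1 count each, in replicate 1. In the fat body list, Yp2 had 2 counts, in replicate 1. The hemocyte markers Hml and Pxn were highest in replicate 3. The hemocyte list had 5 of 6 genes over the minimum and summed to between 81.5 and 99.4 CPM. The gustatory list had 0 of 5 and between 2.84 and 4.23 CPM, with Gr5a, Gr64f and Gr33a at 0, and the list of other neurons had 8 of 8 and between 1894 and 2011 CPM, with elav and nSyb, which photoreceptors also express, as its most abundant genes. The other 6 genes of that list were each highest in replicate 1, among them Vmat, at 45.8, 29.9 and 28.4 CPM, and VGlut, at 47.1, 34.4 and 33.6 CPM in replicates 1, 2 and 3. The part of these cell types in the Obp levels was not tested.

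**Figure D3:**
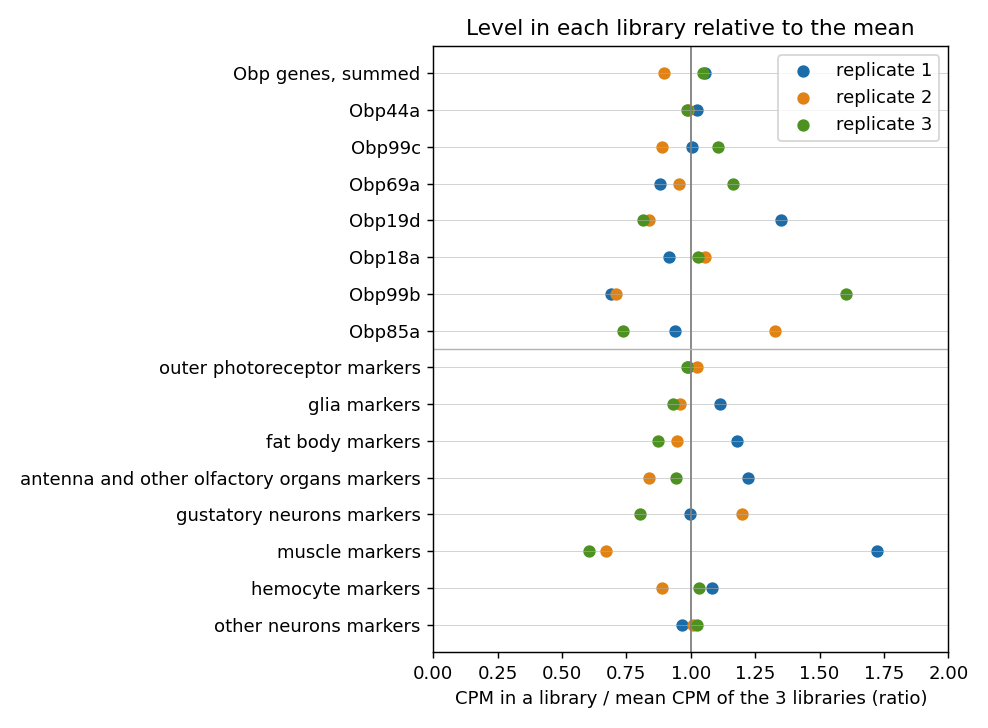
Level in each library divided by the mean of the 3 libraries (ratio of TMM-scaled CPM), for the summed Obp genes, the 7 Obp genes over the minimum and the summed marker lists below the line. The summed Obp level lies between 0.898 and 1.06 of its mean, Obp99b reaches 1.60 in replicate 3, and the muscle markers reach 1.72 in replicate 1.

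Levels between genes were compared per kilobase of annotated gene span, introns included. On this scale Obp69a was highest at 28.5 ± 4.20 CPM per kb (SD, n = 3), and Obp44a followed at 24.2 ± 0.516. Their ranges over the libraries only just missed each other, at 25.1 for the lowest Obp69a value and 24.8 for the highest Obp44a value. Obp19d was next at 13.7 ± 4.14 CPM per kb, and Obp44a was above it in each library. From Obp19d downwards, through Obp99b (11.6 ± 6.05), Obp18a (10.5 ± 0.770), Obp85a (7.45 ± 2.24) and Obp99c (7.16 ± 0.786), the ranges of each gene and the next overlapped. The low place of Obp99c rests on its annotated span of 3576 bases, and exon lengths were not used here. ninaE, at 4268 CPM per kb, was 150-fold above Obp69a on the same scale.

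Position in the genome bears on 4 of the 7 genes, since each overlaps another counted gene in the Release 6 annotation and the counting of shared bases or strands is not stated. Obp69a (FBgn0011279, chr3L:12396171-12396957) lies wholly within CG32104, and Obp85a (FBgn0037589, chr3R:8419822-8420597) wholly within CG45263. Per kilobase of span, Obp69a had 92.8, 103 and 164 counts in replicates 1, 2 and 3, against 12.0, 7.07 and 14.0 for CG32104. Obp85a had 25.8, 37.4 and 27.1 counts per kilobase, against 5.08, 7.23 and 8.25 for CG45263. Before division by span, CG32104 had 66, 39 and 77 counts. CG45263 had 575, 819 and 935 counts over a span of 113290 bases, introns included. The part of host gene reads in the counts of Obp69a and Obp85a was not tested. Obp44a (FBgn0033268, chr2R:8134170-8135315) shares 205 bases with Pabp2, which had 140, 122 and 186 counts. Obp99c (FBgn0039682, chr3R:29685736-29689311) shares 23 bases with Gycalpha99B, which had 49, 47 and 63 counts.

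The other 3 genes overlap no annotated gene. Obp19d (FBgn0011280, chrX:20419613-20420979) lies at the end of a run with Obp19a, Obp19b and Obp19c, which had 3 counts between them. The nearest counted gene to Obp19d is Pp4-19C, 108 bases away, with 24, 26 and 32 counts. Obp18a (FBgn0030985, chrX:19135081-19135868) lies 239 bases from RhoGAP18B, a gene with 1626, 1667 and 2111 counts. Obp99b (FBgn0039685, chr3R:29716254-29716896) lies beside Obp99d and Dup99B, both at 0. These 3 genes summed to 34.4 CPM, and all 35 members that overlap no gene to 45.6 CPM, against 128 CPM for the family.

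The runs numbered 56 and 57, grouped here with taste organs and mouthparts, hold 14 members on chromosome arm 2R. None was over the minimum and 5 had no count. They had 48, 18 and 46 counts in replicates 1, 2 and 3. Obp56d was the highest member under the minimum, with 17, 5 and 24 counts, and its interval in replicate 2 lay below that in replicate 3. It would pass the minimum with replicate 2 left out. Obp57c had 12, 7 and 6 counts, and Obp56g had 10, 1 and 2. Obp57d and Obp57e, which shape the response to the host-plant acids octanoic and hexanoic acid, had none. Obp49a, made in taste sensilla and needed for bitter compounds to dampen the sweet response, had 8, 1 and 9 counts.

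Other runs had few counts or none. The 10 members numbered 47, 50 and 58 had 3 counts in all, on Obp50e in replicate 2, although Obp47b lies within CG7741, a gene with 46, 60 and 93 counts. The hygrosensory gene Obp59a had 1 count. Obp22a and Obp51a, known from the male accessory gland, had 0, and so did Obp46a, Obp73a and Obp93a. Some members at 0 share bases with other genes. Obp51a lies wholly within hbs, Obp73a within Cpr73D and Obp57d within Cpr57A. Obp93a shares 652 bases with CG5793, and Obp50b and Obp50c have the same span. The counting of shared bases is not stated, and its part in these zeros was not tested. By chromosome arm, the members over the minimum were 1 of 29 on 2R, 3 of 12 on 3R, 2 of 6 on X, 1 of 2 on 3L and 0 of 2 on 2L. The share of all genes over the minimum was 41.6% for the whole table. It was not computed by arm, so these counts show no difference between arms.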

How the data were processed

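The authors deposited whole-number read counts per gene, without normalization, for 3 siSet2 RNA libraries made from 10 ng of nuclear RNA each. The submitters' processing notes name Trimmomatic, Bowtie2, STAR, SAMtools, deepTools and DESeq2 and the builds dm6 and BDGP6; the counting tool and strand setting are not given in the sources used here. 1 blank row was left out, and 0 columns belonged to other samples.

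Symbols were matched for 13883 of 13947 identifiers. Positions and spans are from RefSeq's Release 6 plus ISO1 MT table. CPM used totals scaled by TMM over the 5802 genes with at least 10 counts in every library (edgeR 4.0.16, R 4.3.3). The spreads given in the Results are SDs over the 3 libraries, of CPM, CPM per kb or log2(CPM + 1). Separately, edgeR's estimateDisp with an intercept gave a common coefficient of variation of 0.132 over the 5802 genes. Intervals (95% exact Poisson or Clopper-Pearson, scipy 1.17.1) and the detection floor (3 counts) describe counting error alone. No test between groups was made. The rule on separate intervals, and no other step, was tested on simulated Poisson counts. These lack the variation beyond counting error seen between the libraries. Every Obp gene over the minimum was named, and the others summarised. Marker symbols were matched without regard to case. The members follow from their symbols alone, but that rule, the lists and the other rules were chosen with earlier results of these data known. Alternatives were DESeq2 1.42.0 size factors, unscaled totals, other minimums, a pseudocount of 0.1, 99% intervals and each replicate left out.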

Additional observations from a re-analysis of the deposited data

How the results depend on the processing

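No paired analysis was possible because counts of 1 group alone, siSet2 RNA, were analysed. The share of the leading gene per kilobase of exon or coding sequence was not run, since exon and coding lengths were not used here. The number of Obp genes over the minimum was 15 with at least 1 count in every library, 27 with at least 1 count in any library, 6 to 9 at minimums of 20 counts, 5 counts or 1 CPM, and 7 to 8 with a replicate left out. It was 3 without the members that overlap another gene, which also lowered the summed level to 45.6 CPM, by construction; this alternative was chosen after seeing the data. The summed level stayed between 124 and 135 CPM under the other scalings and with a replicate left out. The number of members with separate intervals was 0 with 99% intervals, which are wider by construction, and 1 to 2 with a replicate left out. The median SD of log2(CPM + 1) was between 0.12 and 0.20 with a replicate left out, lowest without replicate 3. None of 35 alternatives moved the mean CPM of a member over the minimum by more than 1 SD, but leaving out 1 of 3 values can hardly do so. Depth limits the 44 members under the minimum: the floor of 3 counts equals 0.605 to 0.820 CPM in a library, and 39 of the 51 members did not exceed 3 counts in any library.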
